A study of Mus musculus with 6 samples.

Results

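Imprinted genes are expressed mainly from the allele of 1 parent. The genes described here are 40 imprinted genes of the mouse outside the Igf2 and H19 locus. They were chosen by symbol, and every array probe whose annotated symbol, current or older, matched was taken. Of the 46632 probes on the array, 97 belonged to 39 of these genes, out of 21462 genes named, and Mirg matched no probe. RNA was taken at day 3 from embryoid bodies, floating aggregates in which embryonic stem (ES) cells begin to differentiate, and was hybridised to Illumina bead arrays on 1 slide. The KO label, on 3 arrays, stands for ES cells with a knockout of endoglin, and the WT label, on the other 3 arrays, for wild type E14 ES cells. The labels describe neither the form of the deletion nor the number of clones. All samples carry the strain label C57BL/6, although E14 is a line of another strain background, and this was not resolved here.

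At many imprinted loci, DNA methylation laid down in the egg or the sperm marks 1 parental copy and governs which copy is transcribed, while some genes, among them Slc38a4, are imprinted through histone methylation set in the egg. Many imprinted genes act on the growth of the embryo and the placenta, and they are arranged in clusters that share a control region. In cultured ES cells these marks are known to be unstable at some loci. The arrays measured total transcript, so the parental origin of a signal was not measured, and nothing here is a measure of imprinting itself. In bulk samples of this kind, fewer cells of a type and less RNA per cell cannot be told apart.

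A probe was tested when its intensity lay above a background limit of 46.3 to 46.4 on at least 3 of the 6 arrays. This held for 56 member probes of 29 genes. The number of arrays limits the precision of every value, and since the labels name no separate cultures, the spread behind each p-value is that of the arrays and may be technical. Endoglin itself, encoded by Eng, did not separate the labels: its tested probe measured 73.5, 45.4 and 48.7 on KO 1, KO 2 and KO 3, against 87, 90.6 and 44.4 on WT 1, WT 2 and WT 3. The array labelled KO 1 was thus nearer to WT 1 and WT 2, and the array labelled WT 3 was at the level of KO 2 and KO 3. The position of the Eng probes relative to the deletion is unknown here, which limits this check of the labels, and why these arrays stand with the other label was not tested. Correlation across probes showed the same arrangement, with 0.9963 between KO 1 and WT 1 and 0.9968 between KO 3 and WT 3, against 0.9902 between KO 1 and KO 3 and 0.9892 between WT 1 and WT 3. The arrays KO 1, WT 1 and WT 2 also held the first 3 positions on the slide and KO 2, KO 3 and WT 3 the last 3, so this split and slide position cannot be told apart. KO and WT therefore mean the arrays so labelled throughout, and differences that passed without KO 1 and WT 3 are also given that way.

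The question set by the series was how the loss of endoglin changes expression at day 3. None of the 29 measured imprinted genes was called between the labels. In limma, 0 passed an adjusted p of 0.05, where 0% of the 22245 probes tested were called. The smallest adjusted p over all probes rounded to 1. With 3 arrays per label and a wide spread within each label, this does not show that no gene changed. At an unadjusted p under 0.05 there was 1 of the 56 member probes, of Gnas, beside 2.19% of all probes, and 0 of the 29 genes by their brightest probe, beside 2.1% of all genes. In limma, 13 genes had higher and 16 lower values under the KO label, with a median log2 difference of -0.02, beside 0.00 over 15834 genes and unnamed probes. The values of several members nevertheless spread widely within each label. Over the 6 arrays, 3 of the 29 genes, Phlda2, Peg3 and Mest, covered a range of 1 or more in background-corrected log2 values. Of all genes, 0.941% did, and the median range was 0.47 for the members against 0.26. The correction narrows the range of dim probes. Usp29 and Slc38a4 were at 0.99, although their highest deposited intensity was 2.46 and 2.07 times the lowest. Members and all genes were not matched for intensity.

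**Figure D1:**
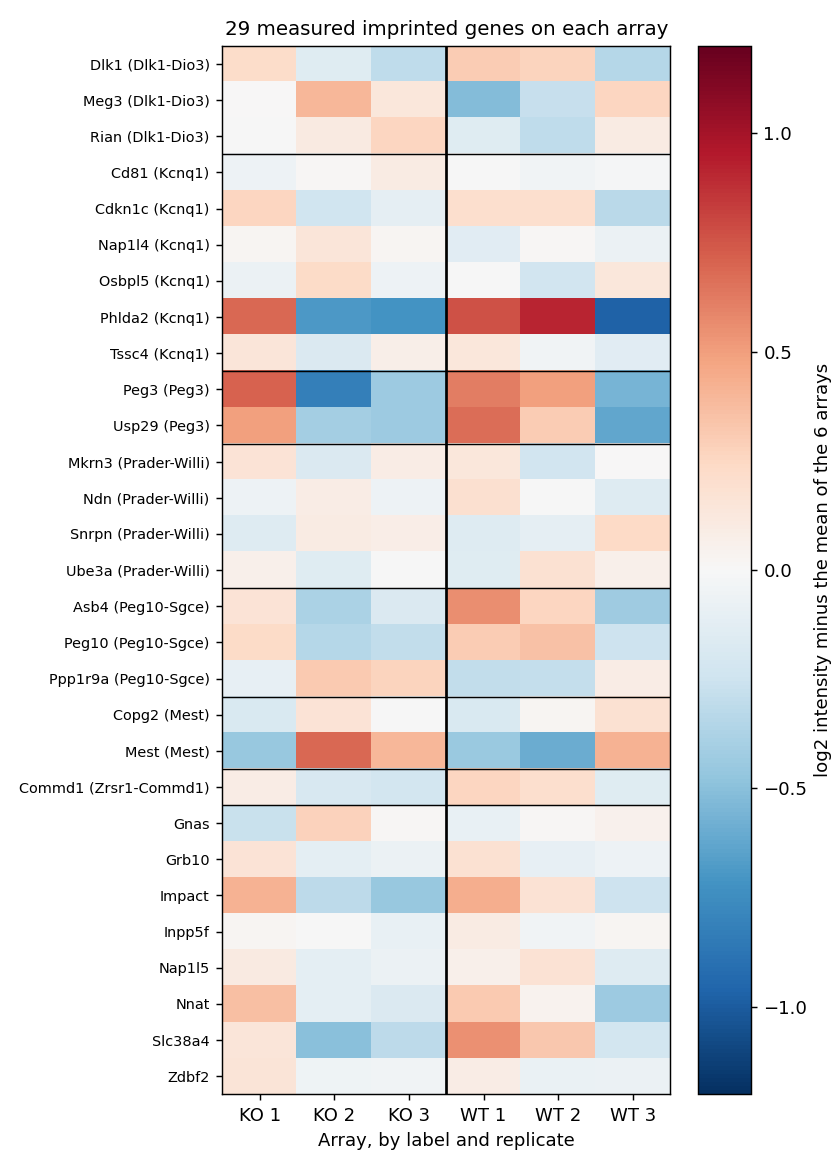
Intensity of the 29 measured imprinted genes (rows, by locus) on each array (columns, KO left and WT right), as log2 intensity minus the gene's mean over the 6 arrays. For Phlda2, Peg3 and Usp29 the arrays KO 1, WT 1 and WT 2 are high and KO 2, KO 3 and WT 3 low, and Mest runs the other way.

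The order of the arrays was not that of the labels. For 12 of the 29 genes the 3 highest arrays were KO 1, WT 1 and WT 2, beside 15% of all genes. The 12 include Nnat, which was above the background limit on these 3 arrays alone, so that the filter fixed its order. For 5 genes, Meg3, Rian, Mest, Ppp1r9a and Snrpn, the 3 highest were KO 2, KO 3 and WT 3, beside 15.7% of all genes. Complete separation means that all arrays of 1 label lay above the other. By the brightest probe it occurred for 1 member, Nap1l4 (3.45% of the 29), beside 6.95% of all genes. Dimmer probes of Nap1l4, Gnas (ILMN_1252926) and Meg3 (ILMN_1227149) also separated the labels. Among the 14 measured genes listed as paternally expressed, 8, Nnat included, were highest on KO 1, WT 1 and WT 2. So were 4 of the 15 listed as maternally expressed. The listing does not hold in every tissue, since Ube3a, for example, is imprinted in neurons, and the copies transcribed here were not measured. These counts describe the order of 6 arrays and carry no test. With slide position (first 3 against last 3 places) as a block, 0 member probes passed in limma, and the KO minus WT difference changed sign for Phlda2 (0.06), Peg3 (0.05), Usp29 (0.07), Cdkn1c (0.10) and Dlk1 (0.02).

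Peg3, on chromosome 7, encodes a zinc finger protein transcribed from the paternal copy. Its brightest probe (ILMN_1245246) measured 1599, 552 and 722 on KO 1, KO 2 and KO 3, against 1494, 1373 and 661.5 on WT 1, WT 2 and WT 3. The second probe gave 247.5, 100.3 and 102 under the KO label and 243, 259.8 and 103 under the WT label. Both probes were high on KO 1, WT 1 and WT 2 and low on the other 3 arrays, so that the labels overlapped. On the log2 scale the brightest probe averaged 9.79 ± 0.78 under the KO label and 10.14 ± 0.63 under the WT label (SD, n = 3 each), a difference of -0.35 (SE 0.41, limma adjusted p = 1).

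Usp29, a ubiquitin-specific peptidase gene, starts next to Peg3 and runs in the opposite direction. It measured 103, 55.1 and 54.2 under the KO label, against 117, 90.5 and 47.6 under the WT label, the same arrays being high as for Peg3 (difference -0.19, SE 0.27, limma adjusted p = 1). Its second tested probe did not follow: that probe stayed between 60.9 and 69.5 on all 6 arrays. Zim1, a zinc finger gene of the same cluster transcribed from the maternal copy, lay below the background limit on every array (37.7 to 44.2).

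The promoter windows of Peg3 and Usp29 in RefSeq (build GRCm38.p6, from 250 bases before to 50 after the start) share 263 of their 300 bases. Peg3 is shown because both genes start from this stretch and were high on the same arrays, Phlda2 because it had the widest range, and Mest because its order was the opposite. Capitals mark CG, the dinucleotide that carries DNA methylation, searched as CG on the strand shown, which reads the same on the other.
Peg3 promoter, chr7:6730370-6730669, minus strand: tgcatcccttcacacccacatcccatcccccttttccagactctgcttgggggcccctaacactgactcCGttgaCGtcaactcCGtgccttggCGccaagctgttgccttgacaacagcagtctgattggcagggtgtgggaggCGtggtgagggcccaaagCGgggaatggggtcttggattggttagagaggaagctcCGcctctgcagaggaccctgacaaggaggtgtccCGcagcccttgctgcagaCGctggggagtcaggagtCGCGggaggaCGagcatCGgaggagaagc
Phlda2 promoter, chr7:143502475-143502774, minus strand: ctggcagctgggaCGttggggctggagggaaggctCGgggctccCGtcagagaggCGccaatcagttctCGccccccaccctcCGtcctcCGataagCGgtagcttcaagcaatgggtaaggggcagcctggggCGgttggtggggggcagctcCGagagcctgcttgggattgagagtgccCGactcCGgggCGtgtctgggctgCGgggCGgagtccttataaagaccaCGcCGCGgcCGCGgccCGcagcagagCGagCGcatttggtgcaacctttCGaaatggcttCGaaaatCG
Mest promoter, chr6:30737800-30738099, plus strand: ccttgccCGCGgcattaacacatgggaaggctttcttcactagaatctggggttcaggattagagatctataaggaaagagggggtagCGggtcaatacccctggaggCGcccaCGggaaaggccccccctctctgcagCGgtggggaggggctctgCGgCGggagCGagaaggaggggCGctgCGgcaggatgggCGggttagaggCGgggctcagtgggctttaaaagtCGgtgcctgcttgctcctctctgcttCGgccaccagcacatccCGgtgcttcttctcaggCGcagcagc
The Peg3 window holds 13 CG, a number reached by 37.9% of all promoter windows of this length. Mest holds 17 (31.4% of windows) and Phlda2 26 (16.9% of windows). Over the 25 measured members with a window, the richest window of each gene held a median of 17 CG, with 0 for Rian as the lowest and 48 for Ppp1r9a as the highest, beside a median of 8 over all 27025 genes in the table. The windows are of C57BL/6J and no methylation was measured here.

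Phlda2, in the Kcnq1 cluster on chromosome 7, encodes a pleckstrin homology domain protein that restrains growth of the placenta. Among all members it had the widest spread, with 3302, 1277 and 1253 on KO 1, KO 2 and KO 3, against 3497, 3882 and 1046 on WT 1, WT 2 and WT 3. KO 1, WT 1 and WT 2 were high and the other 3 arrays low, and the highest value was 3.71 times the lowest. The log2 means were 10.79 ± 0.79 under the KO label and 11.26 ± 1.04 under the WT label (SD, n = 3 each), with a difference of -0.47 (SE 0.54, limma adjusted p = 1).

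Cdkn1c, which encodes the cell cycle inhibitor p57, is in the same cluster and also comes from the maternal copy. It measured 1898, 1351 and 1477 under the KO label, against 1832, 1835 and 1272 under the WT label. KO 1 again lay with WT 1 and WT 2, over a narrower range (difference -0.06, SE 0.17, limma adjusted p = 1).

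The remaining genes of the Kcnq1 cluster varied less. Cd81, a tetraspanin of the cell surface, measured 4149, 4368 and 4633 under the KO label, against 4316, 4207 and 4285 under the WT label. Nap1l4, a histone chaperone of the NAP1 family, measured 4302, 4680 and 4291, against 3843, 4285 and 4039. It was the member whose brightest probe did not overlap between the labels. Its second, dim probe did not overlap either, with 63.0, 64.8 and 64.7, against 60.0, 61.1 and 62.0. Tssc4 gave 167, 134 and 159 under the KO label, against 166, 147 and 138 under the WT label. Osbpl5, an oxysterol-binding protein family member, gave 76.9, 94.7 and 77.4, against 80.3, 69.0 and 89.1. Kcnq1, a potassium channel gene with 5 probes, and Slc22a18, a transporter gene with 2, were above the limit on at most 2 arrays.

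**Figure D2:**
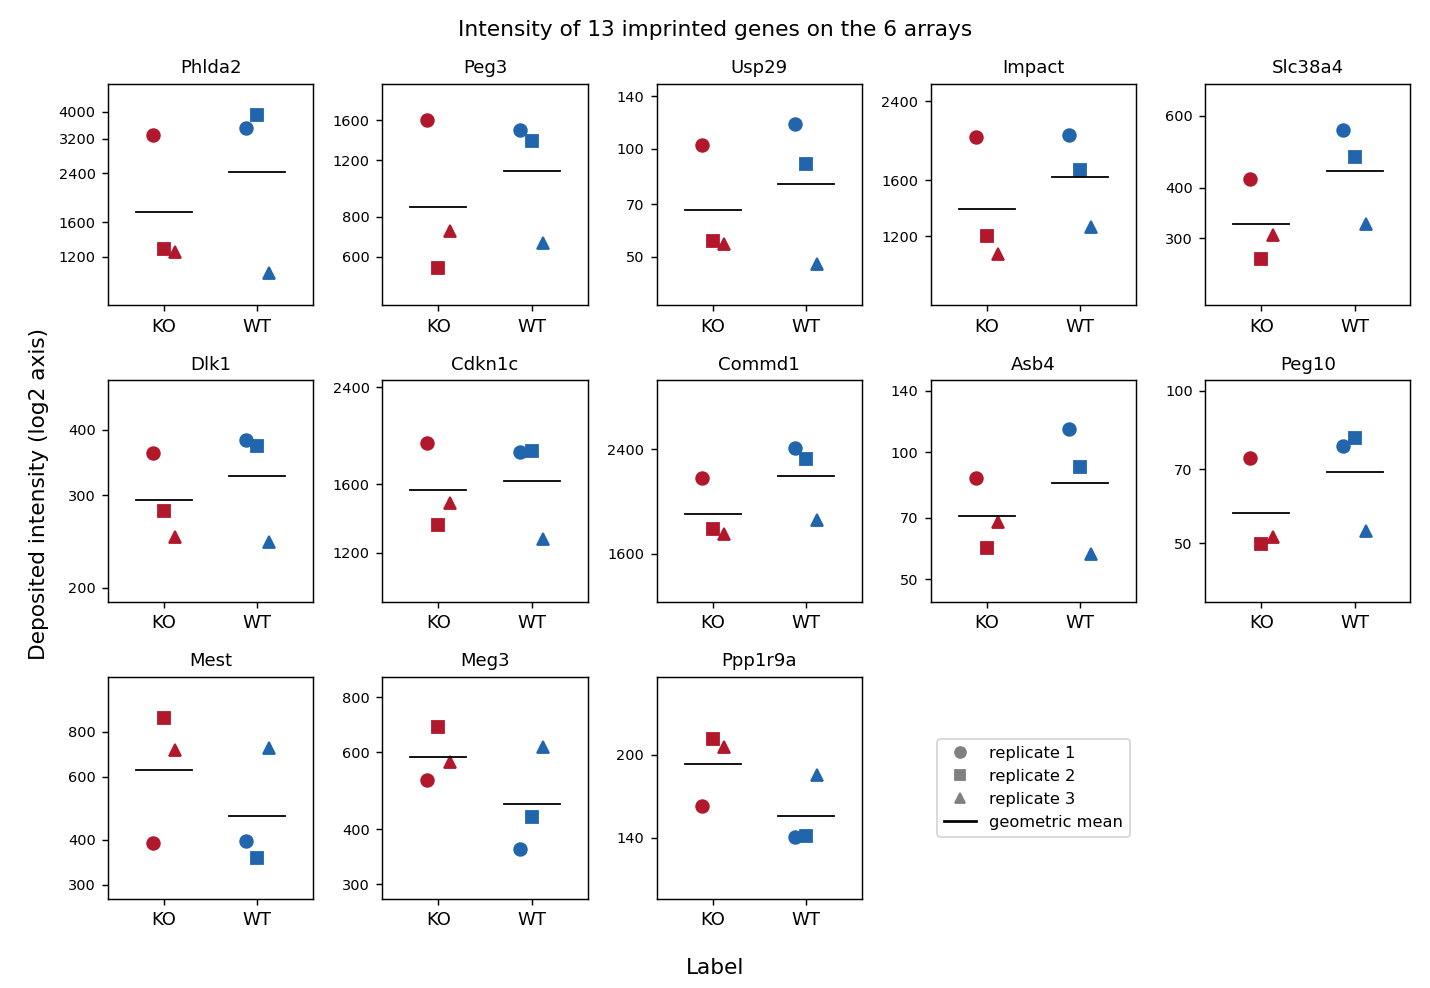
Deposited intensity (log2 axis) of 13 imprinted genes, with KO arrays left and WT arrays right. The marker shape gives the replicate number and the line the geometric mean of a label. In the first 10 panels, Phlda2 to Peg10, the 3 highest arrays are KO 1, WT 1 and WT 2, and in Mest, Meg3 and Ppp1r9a they are KO 2, KO 3 and WT 3.

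Mest, on chromosome 6, encodes an enzyme of the alpha/beta hydrolase fold and is transcribed from the paternal copy. It measured 393, 873 and 711 on KO 1, KO 2 and KO 3, against 396, 357 and 721 on WT 1, WT 2 and WT 3. KO 2, KO 3 and WT 3 were the high arrays, opposite to Phlda2 and Peg3. The log2 means were 9.34 ± 0.57 under the KO label and 8.94 ± 0.52 under the WT label (SD, n = 3 each), with a difference of 0.40 (SE 0.32, limma adjusted p = 1). A second, dim probe of Mest ranged from 40.3 to 69.5 with the same 3 arrays highest. Copg2, a coat protein gene that overlaps Mest from the other strand, measured 118.5, 151 and 134.6, against 119, 137 and 153, with no such split.

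The Dlk1-Dio3 cluster on chromosome 12 holds Dlk1, a Delta-like membrane protein made from the paternal copy, and long noncoding RNAs made from the maternal copy. Dlk1 measured 361, 279 and 249.9 under the KO label, against 382, 372 and 244 under the WT label (difference -0.14, SE 0.18, limma adjusted p = 1), with KO 1, WT 1 and WT 2 highest. Its second probe, at 145, 101 and 116 against 141, 154.5 and 96.1, had the same 3 arrays highest.

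Meg3, a long noncoding RNA of that cluster, ran in the other direction. It measured 518, 683 and 569 under the KO label, against 361, 427 and 617 under the WT label. KO 2 was highest and WT 1 lowest, KO 1 lay between, and the labels overlapped through WT 3 (difference 0.34, SE 0.18, limma adjusted p = 1). The other 3 tested Meg3 probes were dim, at 39.7 to 74.1, and did not repeat this order. Of these, ILMN_1227149 was higher on all KO arrays, at 55.9, 65.7 and 55.6, against 49.05, 51.6 and 51.1. Its difference was 0.16 (SE 0.07, unadjusted p = 0.0594 in limma) and did not pass. Rian, the host transcript of small nucleolar RNAs, measured 101, 109 and 121 on its brightest probe under the KO label, against 91.3, 82.0 and 108 under the WT label. Its second probe was highest on KO 1, at 108, so the probes did not rank the arrays alike.

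The Peg10-Sgce cluster on chromosome 6 did not move as 1 unit. Peg10, a gene derived from a retrotransposon and required for the placenta, measured 73.7, 49.8 and 51.5 under the KO label, against 77.9, 80.6 and 52.9 under the WT label (difference -0.20, SE 0.15, limma adjusted p = 1). Asb4, an adaptor of ubiquitin ligases, measured 86.7, 59.4 and 68.2, against 114, 92.2 and 57.5 (difference -0.21, SE 0.19, limma adjusted p = 1). Both were highest on KO 1, WT 1 and WT 2, and a second Asb4 probe, which ranged from 39.3 to 81.6, had the same 3 highest arrays. That second probe was above the limit on those 3 arrays alone, so the filter fixed its order. Ppp1r9a, which encodes neurabin, an actin-binding regulator of protein phosphatase 1, had the opposite order, with 161, 214 and 207 under the KO label, against 140.3, 141 and 183 under the WT label (difference 0.29, SE 0.13, limma adjusted p = 1). A second Ppp1r9a probe was flat, at 69.9 to 80.6. Sgce, encoding epsilon-sarcoglycan, and Calcr, the calcitonin receptor gene, lay below the limit on every array.

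**Figure D3:**
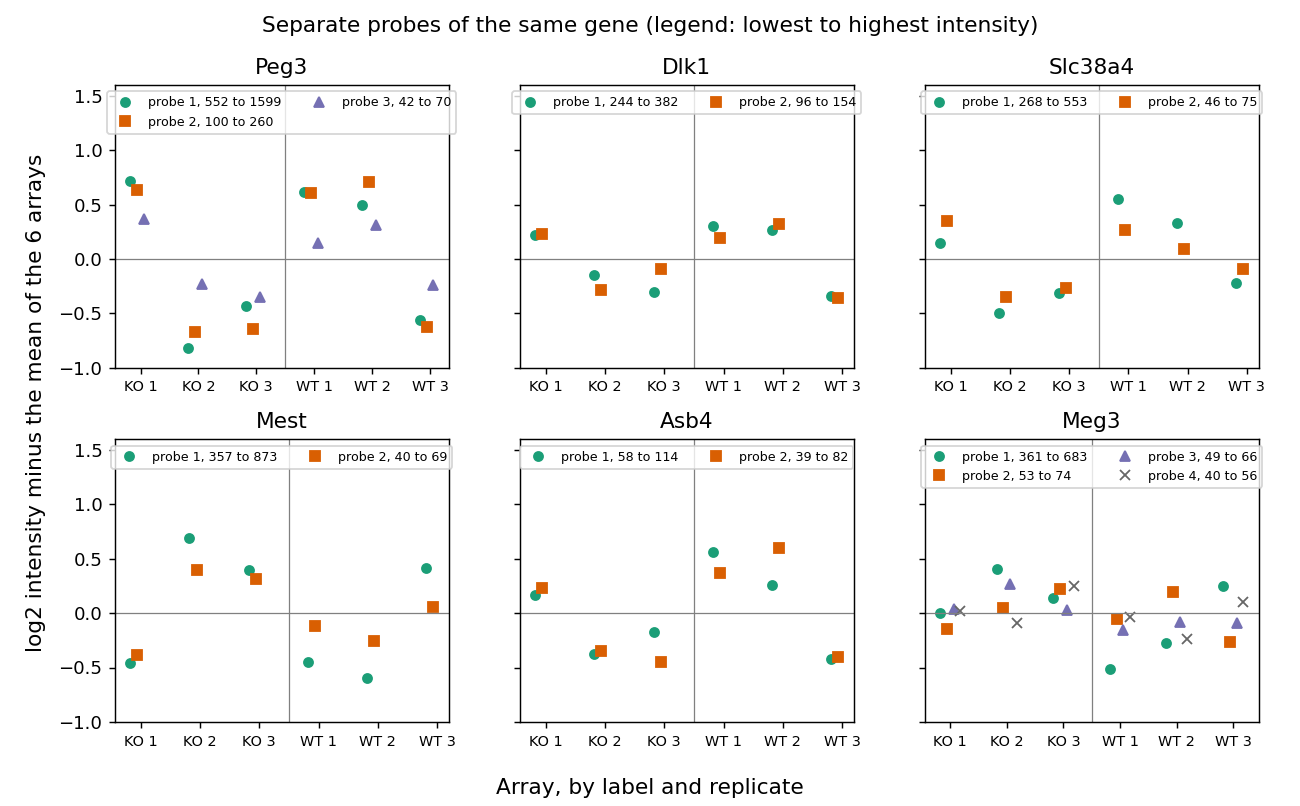
All tested probes of 6 imprinted genes on each array, as log2 intensity minus the probe's mean over the 6 arrays, with KO arrays left of WT arrays and each probe's lowest and highest intensity in the legend. Both probes of Dlk1, Slc38a4, Mest and Asb4 and all 3 of Peg3 place KO 1 on the side of WT 1 and WT 2, while the 4 probes of Meg3 differ. The dimmest probes shown for Peg3 and Asb4 were above the background limit on KO 1, WT 1 and WT 2 alone, which fixed their order.

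The genes of the Prader-Willi region on chromosome 7 differed little between arrays. Snrpn, a protein of the spliceosome, measured 6694, 7954 and 7878 under the KO label, against 6700, 6890 and 8758 under the WT label. Snrpn shares a transcript with Snurf, and the annotations exchange these symbols for 3 probes. Ndn, which encodes the growth suppressor necdin, measured 2386, 2643 and 2379, against 2841, 2479 and 2241. Mkrn3, a ring finger gene, gave 184, 146 and 176, against 182, 141 and 166. Ube3a, the ubiquitin ligase gene imprinted in neurons, gave 77.5, 67.1 and 74.4, against 67.2, 84.2 and 77.7. Their log2 differences lay between -0.05 and 0.05. Magel2 and Peg12 were below the limit on every array.

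Of the imprinted genes outside these clusters, Impact and Slc38a4 spread most. Impact, an inhibitor of the amino acid sensor Gcn2, measured 1992, 1201 and 1095 under the KO label, against 2019, 1683 and 1260 under the WT label (difference -0.23, SE 0.24, limma adjusted p = 1). Slc38a4, an amino acid transporter of the placenta and liver, measured 419, 268 and 305, against 553, 474 and 325 (difference -0.41, SE 0.21, limma adjusted p = 1). Commd1, a regulator of copper export and of NF-kappaB, measured 2145, 1759 and 1727, against 2409, 2312 and 1823 (difference -0.21, SE 0.13, limma adjusted p = 1). In all 3 genes the arrays KO 1, WT 1 and WT 2 were the highest.

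Gnas, which encodes the stimulatory G protein alpha subunit, had 9 probes, 6 of them tested, and they differed in pattern. The brightest gave 681, 997 and 828 under the KO label, against 774, 831 and 852 under the WT label (difference 0.01). Another (ILMN_1252926) gave 122, 115 and 116, against 87.4, 83.4 and 110.1, without overlap (difference 0.28, SE 0.09, unadjusted p = 0.0175, adjusted p = 1 in limma). Without KO 1 and WT 3 this Gnas probe was higher by 0.35 (limma adjusted p = 0.0284). A further Gnas probe (ILMN_2580737), with 68.7, 80.0 and 80.2, against 58.4, 60.3 and 82.2, was higher there by 0.32 (limma adjusted p = 0.0394), while the brightest did not pass (0.18, limma adjusted p = 0.394). Which transcript of this complex locus each probe detects was not resolved.

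The other single genes were even across arrays. Grb10, an adaptor of the insulin receptor, measured 2503, 2059 and 2120 under the KO label, against 2533, 2083 and 2142 under the WT label. Zdbf2, a zinc finger gene, measured 1040, 903 and 910.4, against 996, 887 and 889. Inpp5f, a phosphoinositide phosphatase, measured 473, 464 and 438.5, against 501, 452 and 473.

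The dimmest of these genes came close to the background limit. Nap1l5 measured 54.8, 46.9 and 48.4, against 52.9, 57.2 and 45.6, and Nnat, which encodes neuronatin, 64.7, 46.3 and 44.6, against 62.6, 51.8 and 37.1. On both, KO 1, WT 1 and WT 2 were highest. Nnat was above the limit on those arrays alone, so the filter fixed its order. Plagl1, a zinc finger growth regulator with 4 probes, was above the limit on at most 2 arrays. Gatm, an enzyme of creatine synthesis, and Zrsr1, a splicing factor gene, were above it on 0 arrays. Over all 10 genes that were not tested, the 19 probes ranged from 29.4 to 51.8.

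In a further comparison KO 1 and WT 3 were left out because of their values. Without them, 21 of the 56 member probes passed at an adjusted p of 0.05 in limma, beside 6.47% of all probes. The 21 include dim probes of Peg3 (ILMN_1225513) and Asb4 (ILMN_1252473). Both were above the background limit on KO 1, WT 1 and WT 2 alone, so the filter fixed their order. By the brightest probe 13 of the 29 genes passed, 3 higher and 10 lower under the KO label, where 7.44% of all genes passed (3.53% higher and 3.91% lower). Leaving out arrays for their values makes this no independent evidence of an effect of endoglin, and 2 arrays per label remain. Phlda2 fell by 1.53 (SE 0.09, limma adjusted p = 2.09e-06) and Peg3 fell by 1.15 (SE 0.12, limma adjusted p = 0.000173) on the log2 scale. Mest rose by 1.02 (SE 0.11, limma adjusted p = 0.000212) and Meg3 by 0.64 (SE 0.11, limma adjusted p = 0.00593). The dimmer probes of Meg3, Usp29, Ppp1r9a, Commd1 and Impact did not pass.

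Smaller differences passed for the other 9 genes in that comparison of KO 2 and KO 3 with WT 1 and WT 2. Ppp1r9a rose by 0.51. Of the genes that fell, the log2 differences were -0.79 for Slc38a4, -0.70 for Usp29, -0.67 for Impact, -0.53 for Asb4, -0.48 for Dlk1, -0.47 for Peg10, -0.43 for Commd1 and -0.37 for Cdkn1c, with limma adjusted p-values of 0.000836 for Slc38a4 to 0.0272 for Cdkn1c. The other 16 genes did not pass there, among them all 4 measured genes of the Prader-Willi region and Rian (0.33, SE 0.09, adjusted p = 0.0547). Over the 29 genes the median difference was -0.08, beside 0.01 over all genes.

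**Figure D4:**
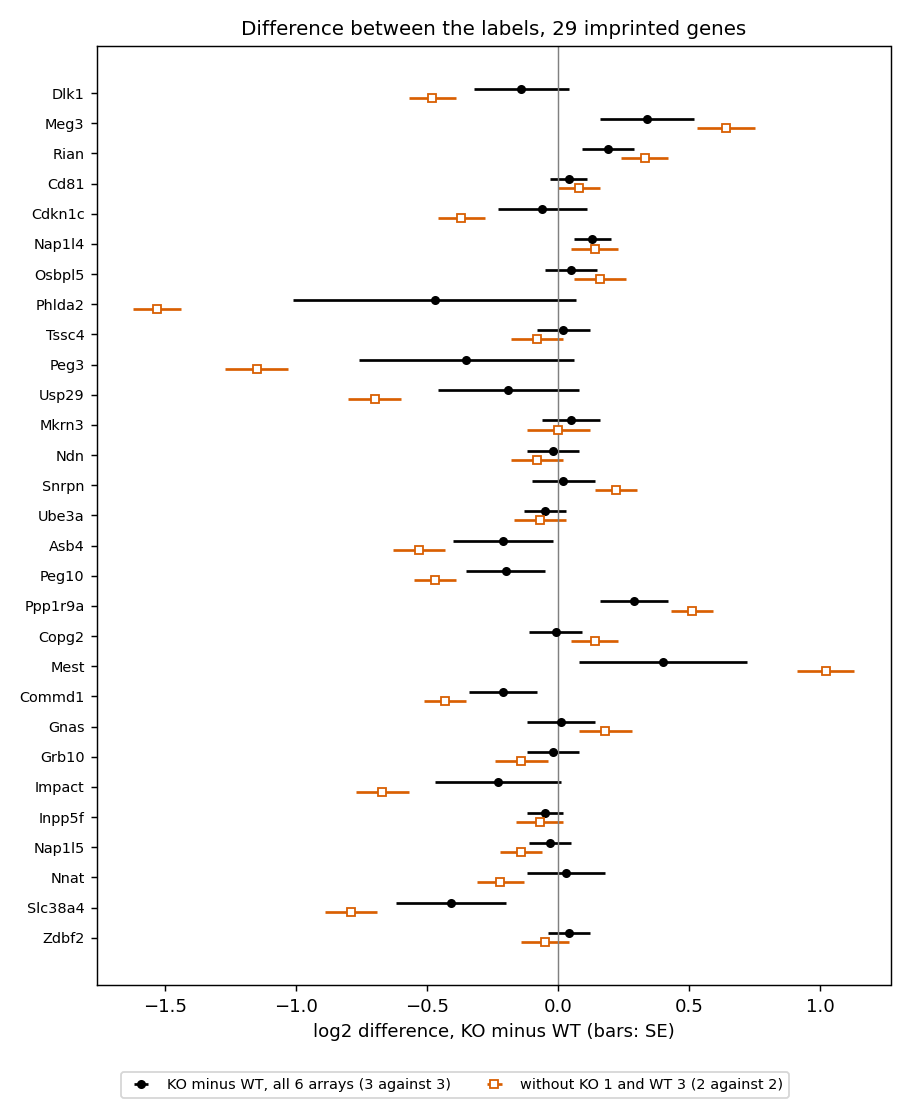
Difference in log2 intensity (KO minus WT, bars give the SE) for the 29 imprinted genes, with all 6 arrays (filled) and without KO 1 and WT 3 (open). With all arrays the points lie between -0.47 and 0.40 and none passed; with 4 arrays Phlda2 is at -1.53, Peg3 at -1.15 and Mest at 1.02.

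Markers of cell types were read on the same arrays. The 9 mesoderm genes, which include Mesp1, Etv2 and T, were all measured, as were all 8 pluripotency genes, so both kinds of transcript were present at day 3. Summed mesoderm intensity was 16150, 8264 and 8074 on KO 1, KO 2 and KO 3, against 16600, 16850 and 6980 on WT 1, WT 2 and WT 3. Summed pluripotency intensity was 5491, 7525 and 7246, against 5461, 5677 and 7582. The mesoderm sum was high on the arrays where Phlda2 and Peg3 were high, and the pluripotency sum on those where Mest was high. Of the single genes, 8 of the 9 mesoderm genes and 6 of the 8 pluripotency genes had the same 3 highest arrays as their sum. Kdr did not, at 108, 120 and 91.2 under the KO label, against 84.1, 111 and 130 under the WT label. Klf4, at 49.1 to 59.95, and Tdgf1, highest on KO 1, WT 1 and WT 3, did not follow the pluripotency sum. The part of cell composition in the values of the imprinted genes was not tested.

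Lists of other cells held genes that ran both ways, which their sums partly hide. The sums include genes below the background limit, and no background was subtracted, so part of each sum is background. Trophoblast markers summed to 4157, 3801 and 3824 under the KO label, against 4392, 4082 and 3564 under the WT label, and 8 of 11 with a probe were tested, while Elf5, Tpbpa and Ascl2 were below the limit on every array. Gata3, a transcription factor, measured 179, 50.7 and 57.7, against 186, 172 and 44.1, and Krt7, a keratin, ran the other way with 150.5, 314 and 288, against 164, 144 and 286.5. Without KO 1 and WT 3, left out because of their values, 1 of the 8 trophoblast genes passed as higher and 3 as lower in limma. Over all genes, 3.53% passed as higher and 3.91% as lower there. Hand1, among the 3 lower, was above the background limit on KO 1, WT 1 and WT 2 alone. The filter fixed its order, so no difference is read from it. Extraembryonic endoderm markers summed to 2803, 2401 and 2379, against 3053, 3216 and 2152, with 9 of 11 tested and a median log2 range of 1.08, beside 0.26 over all genes. Gata6, a transcription factor of primitive endoderm, measured 1324, 621.5 and 642, against 1471, 1530 and 492, whereas Amn, which encodes amnionless, measured 95.9, 255 and 217, against 93.8, 111.5 and 232. Without KO 1 and WT 3, 4 of these 9 genes passed as higher and 4 as lower in limma, beside the same 3.53% and 3.91% of all genes. Sox7, among the lower, was above the background limit on KO 1, WT 1 and WT 2 alone. Ttr, among the higher, was above it on KO 2, KO 3 and WT 3 alone. The filter fixed the order of both, so no difference is read from them. Fibroblast markers, which would show feeder cells, summed to 911, 755 and 757, against 943.5, 913 and 756, with 6 of 11 below the limit on every array, among them the collagen genes Col1a1, Col1a2 and Col3a1. Neural markers summed to 433, 398 and 400.4, against 402, 409 and 387, with 3 of 7 tested and Sox1 below the limit. Of the 3, Tubb3 was higher on all KO arrays, at 72.4, 85.65 and 84.0, against 58.9, 68.1 and 59.05. Its difference was 0.29 (SE 0.08, unadjusted p = 0.00701 in limma) and did not pass after adjustment. Nes (-0.08, SE 0.09) and Pax6 (-0.05, SE 0.07) were slightly lower under the KO label. The 5 measured fibroblast markers differed in order. Fbln2 was high on KO 1, WT 1 and WT 2, at 228, 63.6 and 60.9 under the KO label, against 227, 203 and 58.6 under the WT label. Acta2 was lower on all KO arrays (difference -0.21, SE 0.07, unadjusted p = 0.0169, adjusted p = 1 in limma), Thy1 was highest on KO 2, KO 3 and WT 3, and Pdgfrb ranged from 51.4 to 69.0. Dcn measured 46.9, 49.3 and 48.8, against 45.3, 39.9 and 41.9, which is close to the background limit. It was above that limit on the 3 KO arrays only, so the filter fixed its order and no difference is read from it. The part of the cells these lists stand for in the values of the imprinted genes was not tested.

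**Figure D5:**
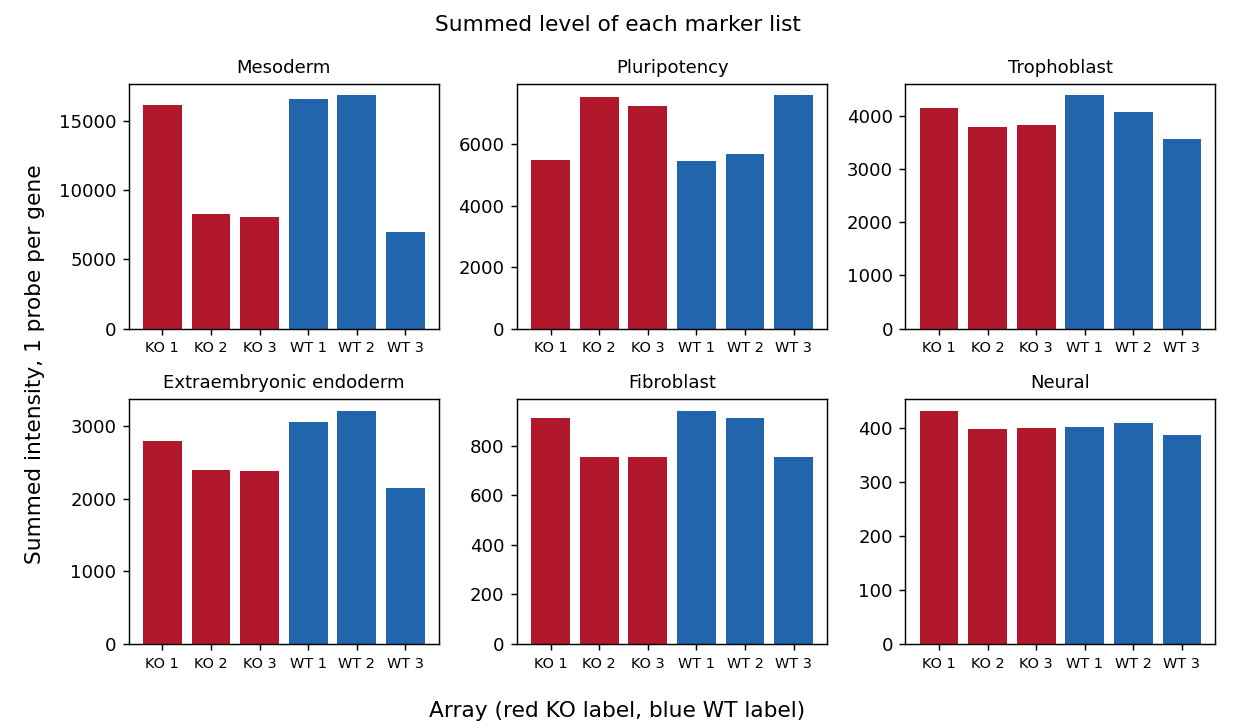
Summed deposited intensity of 6 lists of marker genes on each array, 1 probe per gene, with the KO arrays (red) left of the WT arrays (blue). Genes below the background limit are included, and no background was subtracted. The mesoderm sum is 16150 to 16850 on KO 1, WT 1 and WT 2 and 6980 to 8264 on the other arrays, and the pluripotency sum runs the other way.

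Genes that keep or set imprints were mostly even between arrays. Of 28 such genes 23 were tested, 15 with higher and 8 with lower values under the KO label, beside 8135 higher and 7699 lower over all genes. In limma 0 passed, with 0 at an unadjusted p under 0.05 and a median difference of 0.05. Dnmt3l, a cofactor of the de novo methyltransferases, was the exception in spread, at 498 on KO 1, 1116 on KO 2 and 1097 on KO 3, against 426, 523 and 1027 on the WT arrays (difference 0.46, SE 0.38, limma adjusted p = 1). KO 2, KO 3 and WT 3 were the high arrays, as for Mest, and without KO 1 and WT 3 it rose by 1.19 (limma adjusted p = 4.8e-05). The de novo methyltransferase gene Dnmt3b measured 17230, 17880 and 18170, against 12910, 15880 and 21110 (difference 0.12, SE 0.16). Zfp57, a zinc finger protein that holds methylation at imprinted regions, measured 160.4, 140.5 and 103, against 169, 159 and 116 (difference -0.12, SE 0.16).

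Arid4a, a chromatin protein tied to imprinting, measured 159, 100.5 and 125, against 129, 143 and 124 (difference -0.05, SE 0.13). Of the genes of this list with the smallest p, Tet1, a 5-methylcytosine oxidase, differed by 0.12 (SE 0.09), Naa10, an N-terminal acetyltransferase, by 0.08 (SE 0.07), and the insulator protein gene Ctcf by -0.09 (SE 0.08).

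A further 45 imprinted genes were read for comparison, of which 24 were tested. Under the KO label 22 had higher and 2 lower values, beside 8135 higher and 7699 lower over all 15834 genes and unnamed probes. Their median was 0.03 beside 0.00 over all genes, and 0 passed in limma, with 0 at an unadjusted p under 0.05. The count of directions carries no test, and the list includes Snurf, which shares a transcript with Snrpn. H13, a signal peptide peptidase gene, measured 457, 631 and 699, against 416.5, 452 and 594 (difference 0.27, SE 0.17). Smoc1, an extracellular matrix protein gene, measured 258, 348 and 356, against 225, 271 and 328 (difference 0.21, SE 0.15). Jade1, a subunit of histone acetyltransferase complexes, measured 521, 609.6 and 589, against 450.3, 453 and 631 (difference 0.17, SE 0.13). Sfmbt2, a Polycomb group gene active in trophoblast, measured 105, 165.5 and 144, against 111, 118 and 173 (difference 0.04, SE 0.18).

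In H13, Smoc1 and Sfmbt2 the array KO 1 lay nearer to WT 1 and WT 2 than to KO 2 and KO 3, while in Jade1 it lay between them. Without KO 1 and WT 3 these 4 genes and no other of the 24 passed in limma, 4 higher and 0 lower, beside 3.53% of all genes higher and 3.91% lower, by 0.59 for H13, 0.47 for Smoc1, 0.39 for Jade1 and 0.37 for Sfmbt2. Igf2r, the receptor that clears insulin-like growth factor 2, measured 249.8, 264 and 294, against 210.2, 264 and 249 (difference 0.15, SE 0.10). Its values did not follow that order.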

How the data were processed

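Total RNA from day 3 embryoid bodies was measured on 6 Illumina bead arrays, 3 per label; Trizol extraction, DNase treatment and amplification to biotinylated cRNA are recorded per the labels' protocols. The values used are the authors' deposited intensities, normalized by a method that the sources used here do not give. All 6 columns share a highest value of 32123 and medians of 45.1. A second deposited table of unnormalized signals has 12 value columns whose names match no sample, and these were not used; its deposited symbol column and the platform annotation named the probes, with older symbols updated through RefSeq (GRCm38.p6). Of 46632 probes, 29976 were named by the platform annotation and 7384 by the file's symbol.

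Intensities were corrected with normexp (offset 50), which shrinks the differences of dim probes, and taken to log2 in limma 3.58.1 (R 4.3.3). The background limit was the 95th percentile of a normal distribution around the peak of each array, and 22245 probes were kept. KO was compared with WT by lmFit and eBayes, two-sided, with Benjamini-Hochberg adjustment over all kept probes at 0.05. A gene was represented by its brightest kept probe. All members were accounted for by locus; of the other lists, the 4 genes with the smallest p and the 4 with the widest range were named. The members and lists were chosen with earlier results of these data known. Alternatives changed the normalization, the background correction, the probe choice, the filter, the variance model, array weights, blocks and which arrays were used. The fit was tested on simulated data.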

Additional observations from a re-analysis of the deposited data

How the results depend on the processing

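No call was made in any alternative except the omission of the arrays labelled KO 1 and WT 3, chosen with earlier results known. There 1440 probes, 21 member probes and 13 member genes passed in limma, and Eng was at -0.67. Among the 21, the filter fixed the order of the dimmest tested probes of Peg3 and Asb4. Leaving out 1 array at a time gave 0 to 0 called probes, member probes and member genes, a median member difference of -0.07 to 0.03 and an Eng difference of -0.52 to -0.14. With slide position (the first 3 against the last 3 places) as a block, the sign turned for Dlk1 (0.02), Cdkn1c (0.10), Phlda2 (0.06), Peg3 (0.05), Usp29 (0.07), Zfp57 (0.01), Arid4a (0.04) and Sfmbt2 (-0.13), and the cause was not tested. With 1 array left out it turned for Cdkn1c (-0.23 to 0.04), Usp29 (-0.47 to 0.03), Dnmt3b (-0.04 to 0.31), Zfp57 (-0.27 to 0.03), Arid4a (-0.19 to 0.08) and Sfmbt2 (-0.08 to 0.21). Without both arrays labelled KO 1 and WT 3, Cdkn1c was at -0.37, Usp29 at -0.70, Dnmt3b at 0.33, Zfp57 at -0.38 and Sfmbt2 at 0.37. Of 311 values for 26 named differences under settings other than single omissions, 284 kept direction and side of the threshold, 8 turned and 19 passed, the 19 all without those 2 arrays. Sizes moved more: with the background peak subtracted, Usp29 was at -0.65, Peg10 at -0.51, Asb4 at -0.46, Eng at -0.72 and the Gnas probe at 0.55, with array weights Phlda2 was at -0.90, Peg3 at -0.67 and Mest at 0.66, and with slide position as a block Mest was at 0.09 and Impact at -0.01. Leaving out 1 array moved Phlda2 between -1.07 (without WT 3) and -0.13 (without WT 2), Peg3 between -0.79 and -0.04 and Mest between 0.17 and 0.72. With the replicate number as a block (replicate block), 0 probes passed and the Phlda2 difference stayed at -0.47. Same-numbered arrays deviated together at 0.579, -0.258 and 0.504 for numbers 1, 2 and 3, so the numbers were not taken as pairs. Signal over background limits the 10 untested genes, Nnat and Nap1l5. It also limits Usp29 (47.6 on WT 3), Peg10 (49.8 on KO 2) and Eng (45.4 on KO 2 and 44.4 on WT 3).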
